A study of Mus musculus with 163 samples.

Results

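The genes described here are 10 mouse genes that sense DNA breaks or carry out the death of damaged oocytes. They are the kinases Atm, Atr, Chek2 and Chek1, the transcription factors Trp63 and Trp53, the BH3-only death activators Bbc3 and Pmaip1, the pore-forming effector Bax and the BCL2-family inhibitor Bcl2l10. They were chosen by symbol, through the Entrez identifier of each row of the count table, and all 10 were found among 21950 genes. The rule itself uses no measured value, although earlier results of these data were known when the genes were picked.

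The data are RNA-seq read counts of single mouse oocytes, prepared by a full-length cDNA method and collected at 2 stages of growth. Growing oocytes (GROs) are oocytes still enlarging inside the follicle, and fully grown oocytes (FGOs) have completed growth. The study asked how each step of making oocytes in culture alters their RNA, and its abbreviations are used here: IVP for the making of primordial germ cell-like cells, IVD for oocyte differentiation in an ovary-like aggregate and IVG for the growth of follicles, all in vitro. The 7 groups hold 23 iPSC-derived, 24 gonad-derived and 24 in vivo GROs, and 24 iPSC-derived, 24 gonad-derived, 24 6 dpp follicle-derived and 20 in vivo FGOs.

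The iPSC-derived oocytes came from BVSC-iPSC, 1 female induced pluripotent stem cell line made from adult tail fibroblasts and carrying the reporters Blimp1-Venus and Stella-ECFP, and no second line was sequenced. Its primordial germ cell-like cells were aggregated with gonadal somatic cells of Swiss Webster embryos and passed through IVP, IVD and, for FGOs, IVG. Gonad-derived oocytes started from germ cells of E12.5 embryonic gonads (E, embryonic day) and passed through IVD and, for FGOs, IVG, without IVP. The 6 dpp oocytes were taken from follicles of pups 6 days after birth and passed through IVG alone, and in vivo oocytes grew in the mouse. The labels name no drug or DNA-damaging treatment, and the strain and age of the in vivo donors are not in the labels. The labels do not tie oocytes to an animal, embryo or culture, so each group counts as 1 sample, no p-value is given, and the spread over oocytes is a spread within that sample.

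In meiotic oocytes, DNA double-strand breaks activate ATM and ATR, which phosphorylate CHK2 and CHK1. CHK2 acts on p53 and on TAp63, the p63 form that oocytes hold in an inactive state, and activated p63 and p53 switch on Bbc3 (PUMA) and Pmaip1 (NOXA). Those proteins release BAX and BAK to open the mitochondrial outer membrane, a step that antiapoptotic relatives oppose, and this pathway eliminates damaged primordial oocytes. Much of it is controlled by phosphorylation, which RNA counts do not measure.

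Promoter sequences of 7 of the 10 genes were taken from RefSeq (GRCm38.p6), each from 250 bases before the transcription start to 50 after it. Those of Trp63, Bcl2l10 and Pmaip1 were not searched. Those of Chek2, whose RNA differed most between the stages, and of Bax and Trp53, which were both higher in the oocytes of the iPSC line, are printed 5′ to 3′ along the gene's strand. In the Chek2 promoter, capitals mark the matches to CCAAT, here on the opposite strand as ATTGG. In the Bax and Trp53 promoters, capitals mark the match to the p53 decamer, the 10-base consensus that p53-family proteins bind in pairs. Atm was also higher in iPSC-derived than in gonad-derived oocytes at both stages, and its promoter, not printed, held no p53 decamer. The Chek2 window is chr5:110839733-110840032 (plus strand), the Bax window is chr7:45466849-45467148 (minus strand) and the Trp53 window is chr11:69580109-69580408 (plus strand).
Chek2: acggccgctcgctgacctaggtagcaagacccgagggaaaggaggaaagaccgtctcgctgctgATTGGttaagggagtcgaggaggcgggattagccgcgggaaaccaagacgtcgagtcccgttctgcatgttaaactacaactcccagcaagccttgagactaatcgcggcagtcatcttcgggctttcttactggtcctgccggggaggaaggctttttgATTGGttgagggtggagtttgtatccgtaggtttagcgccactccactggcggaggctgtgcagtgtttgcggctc
Bax: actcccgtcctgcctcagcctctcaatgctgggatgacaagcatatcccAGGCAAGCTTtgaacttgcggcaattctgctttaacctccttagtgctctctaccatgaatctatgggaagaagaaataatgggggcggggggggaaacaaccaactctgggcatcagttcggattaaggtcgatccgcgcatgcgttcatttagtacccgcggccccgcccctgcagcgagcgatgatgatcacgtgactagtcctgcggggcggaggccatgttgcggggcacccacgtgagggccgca
Trp53: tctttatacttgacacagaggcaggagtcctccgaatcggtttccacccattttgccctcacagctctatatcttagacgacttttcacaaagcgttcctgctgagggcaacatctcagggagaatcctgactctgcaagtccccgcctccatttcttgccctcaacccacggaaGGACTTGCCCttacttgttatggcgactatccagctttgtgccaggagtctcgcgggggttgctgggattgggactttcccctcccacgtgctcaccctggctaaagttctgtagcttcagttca

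The Chek2 window held 2 CCAAT matches, and 37.4% of 32851 mouse promoters of the same length held at least 1. Of the 7 genes searched, 4 held CCAAT on either strand. CACGTG, which reads the same on both strands, was found in 3 of them (Bbc3, Bax and Trp53) and in 7.15% of all promoters. Bbc3 has 3 windows, for 3 start sites, and its CCAAT and CACGTG lie in 1 of them, while each other gene has 1 window. The p53 decamer was found in Bax, 201 bases before the start (offset -201), in Trp53 at offset -75, and in 8.36% of all promoters. These matches describe the letters in the window and are not measured binding sites.

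The libraries held 2.17 to 13.7 M counted reads (M, 1000000), with a median of 6.93 M, and each group held 145 to 166 M in all. Levels are given as counts per 1000000 counted reads (CPM), pooled over the oocytes of a group, with the lowest, median and highest oocyte. CPM is a share of each library, so the amount of RNA per oocyte was not measured. A ratio is log2 of pooled CPM + 0.5 in one group over the other, and a change is called where it reaches 2-fold. The interval of a ratio sets the lower 95% counting limit of one group over the upper limit of the other, and the reverse. It covers counting error only and is wider than a 95% interval of the ratio. A gene entered a comparison if it exceeded 1 CPM in at least 3 oocytes. All 12 oocyte markers were found, with summed levels of 42118 to 61077 CPM in GROs and 21610 to 45850 CPM in FGOs. The sum of 10 granulosa markers had medians of 49.5 to 54.2 CPM in the GRO groups and 88.9 to 128 CPM in the FGO groups, and the highest single sums were 1627 CPM in 6 dpp oocyte 12 and 412 CPM in in vivo oocyte 19. Much of this difference was Cyp19a1, with medians of 7.41 to 19.4 CPM in the GRO groups and 61.6 to 73.6 CPM in the FGO groups. Of the granulosa markers that passed the filter, 7 of 9 in vivo, 6 of 8 gonad-derived and 4 of 7 iPSC-derived were higher in FGOs. The sum of 10 theca and stroma markers had medians of 3.39 to 5.59 CPM in the GRO groups, and of 5.68, 5.13, 14.8 and 6.31 CPM in FGOs from the iPSC line, gonads, 6 dpp follicles and in vivo growth. Of 5 blood markers, Ptprc, Lyz2 and the haemoglobin genes Hbb-bs and Hba-a2 were at or near 0 (pooled), while the macrophage gene Cd68 was at 2.04 to 5.79 CPM, with up to 27.4 CPM in 1 oocyte. The part of follicle cell RNA in the results was not tested.

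**Figure D1:**
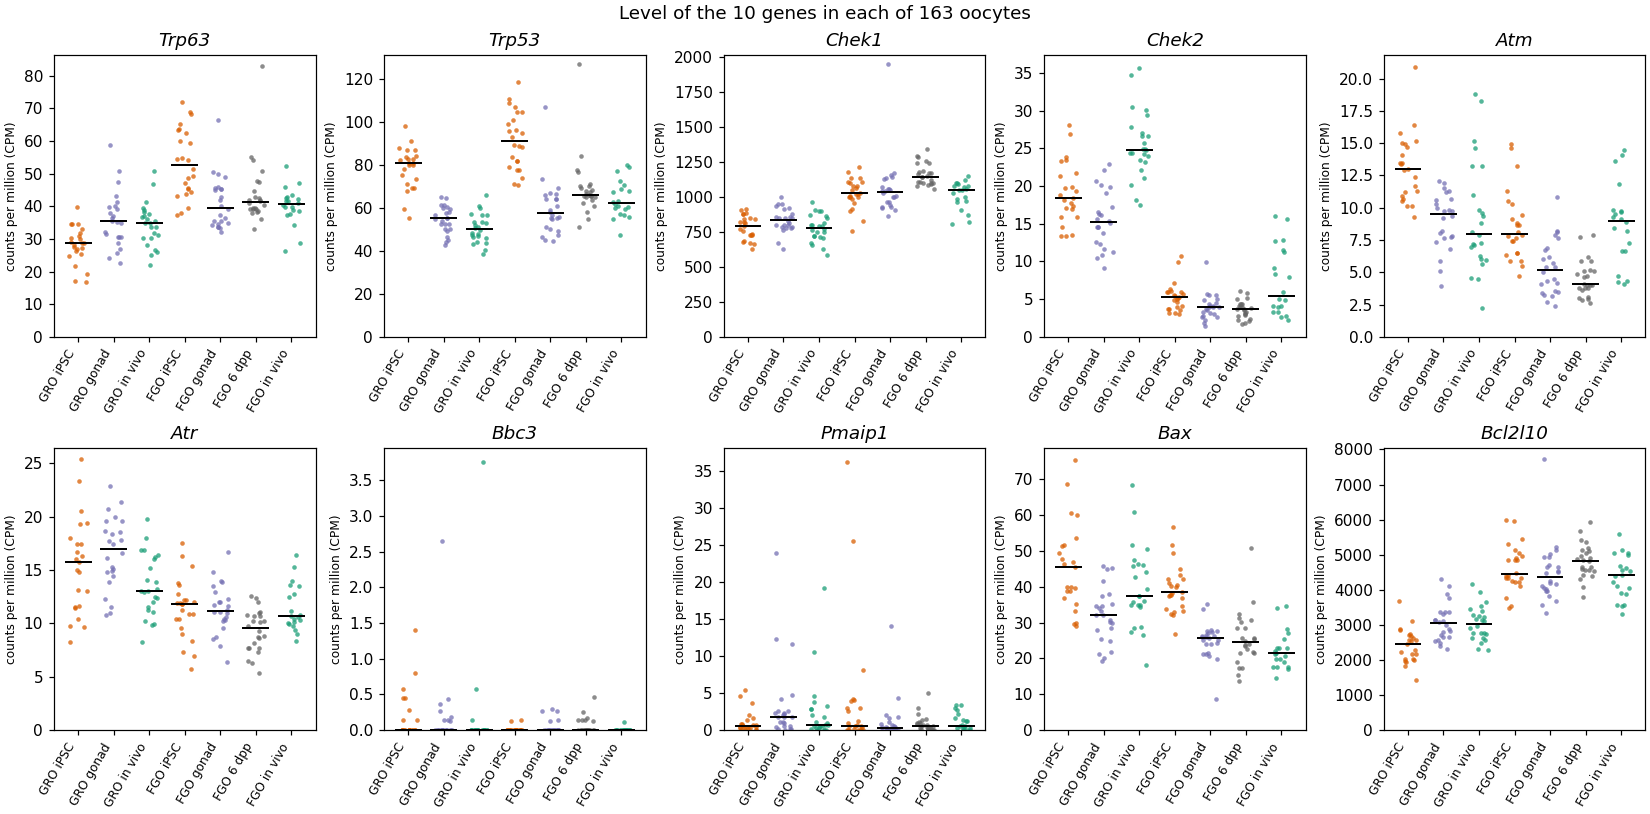
Level of each gene (y axis, CPM, linear from 0) in each oocyte (points), by group (x axis), with the group median as a line. Chek2 medians are 3.69 to 5.46 CPM in the FGO groups and 15.3 to 24.9 CPM in the GRO groups, Bbc3 is at 0 in most oocytes, and single oocytes reach 36.3 CPM of Pmaip1.

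The largest and most regular difference in this gene set was the fall of Chek2 between growing and fully grown oocytes. Chek2, the checkpoint kinase 2 gene (chr5:110839979-110874145, plus strand, GRCm38), encodes the kinase that passes the ATM signal to p63 and p53. In in vivo GROs it was at 25.6 CPM, with oocytes from 17.5 through a median of 24.9 to 35.7 CPM. In in vivo FGOs it was at 7.51 CPM, with oocytes from 2.17 through 5.46 to 16.0 CPM. Every one of the 20 FGOs lay below every GRO, and the pooled level fell by 1.71 on the log2 scale (interval -1.83 to -1.58), a 3.26-fold difference.

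The same fall was seen in oocytes grown in culture. iPSC-derived oocytes held 19.2 CPM of Chek2 as GROs (13.4, 18.4 and 28.1 CPM for the lowest, median and highest oocyte) and 5.33 CPM as FGOs (2.96, 5.25 and 10.7 CPM). These ranges did not overlap either, with a log2 ratio of -1.76 (-1.89 to -1.62). Gonad-derived oocytes held 15.5 CPM as GROs (9.15, 15.3 and 23.0 CPM) and 4.00 CPM as FGOs (1.41, 3.93 and 9.94 CPM). Here 23 of 24 FGOs lay below the lowest GRO, oocyte 6 being the exception, and the log2 ratio was -1.83 (-1.99 to -1.68). Between growing and fully grown oocytes, 8.11% of tested genes in vivo, 3.86% in the gonad-derived groups and 6.91% in the iPSC-derived groups had a ratio at least as large in either direction.

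Set against all genes, a fall of this size was not rare. Of 13148 genes tested in vivo, 10.4% were at least 2-fold higher and 13.2% at least 2-fold lower in FGOs, and 3.45% had ranges that did not overlap. Of the 9 genes of the set that passed the filter, Chek2 alone was called, so 1 was lower and none was higher. In the gonad-derived groups 5.82% of genes were higher, 9.98% lower and 3.98% without overlap, and in the iPSC-derived groups these shares were 6.69%, 15.3% and 8.01%. Each of those comparisons called 2 genes of the set, Chek2 and Pmaip1. Chek2 was the only one of the 9 without overlap, in vivo and in the iPSC-derived groups, and none was in the gonad-derived groups.

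Among FGOs, Chek2 was spread most widely in vivo, where the coefficient of variation over oocytes was 61.2%. Oocytes 7, 22, 1 and 19 held 16.0, 15.6, 12.8 and 12.7 CPM, against a group median of 5.46 CPM. Oocytes 7 and 19 were among 7 FGOs that stood apart from their groups in earlier results of these data, and without those 7 the growth ratio in vivo was -1.91. The 6 dpp FGOs held 3.61 CPM (1.66, 3.69 and 6.04 CPM), and 9 of 20 in vivo FGOs lay above the highest of them. Their pooled level was 1.95-fold below in vivo FGOs (log2 -0.96, -1.15 to -0.78), and 22 of 24 lay below the in vivo median. The ratio of medians was smaller, at -0.51. Theca and stroma markers moved in the same comparison, with 4 of the 7 that passed called higher after follicle culture and a median ratio of 1.18 against -0.04 over all genes. Without the 7 FGOs that stood apart, which include 6 dpp oocyte 12, the Chek2 ratio was -0.78 and that of Atm -0.81. Among GROs, the gonad-derived oocytes were below in vivo ones by 1.63-fold (log2 -0.71, -0.81 to -0.61), with 18 of 24 under the lowest in vivo oocyte. By pooled level the GRO groups therefore ran in vivo, iPSC, gonad, and the FGO groups in vivo, iPSC, gonad, 6 dpp, but ranges overlapped between all neighbours within a stage. The paper reports that iPSC-derived and gonad-derived GROs were larger than in vivo GROs. The part of oocyte size in the differences between GRO groups was not tested.

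Atm (chr9:53439149-53536740, minus strand) encodes the kinase that responds first to double-strand breaks. It was low in all groups and did not differ between in vivo GROs at 9.19 CPM (2.20, 7.99 and 18.8 CPM) and in vivo FGOs at 8.72 CPM (4.11, 8.98 and 14.5 CPM) beyond counting error (log2 -0.07, -0.22 to 0.07). In gonad-derived oocytes it was at 9.00 CPM in GROs (3.94, 9.53 and 12.1 CPM) and 5.39 CPM in FGOs (2.41, 5.19 and 10.8 CPM), a ratio of -0.69. In iPSC-derived oocytes it was at 12.9 CPM in GROs (9.30, 13.0 and 20.9 CPM) and 8.67 CPM in FGOs (4.74, 7.99 and 14.9 CPM), a ratio of -0.55. Neither ratio reached 2-fold, although 23 of 24 and 21 of 24 FGOs lay below the median of their GROs.

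Atm was higher in iPSC-derived than in gonad-derived oocytes at both stages, by 1.41-fold in GROs (log2 0.50, 0.37 to 0.63) and 1.56-fold in FGOs (0.64, 0.48 to 0.80). Of the iPSC-derived oocytes, 22 of 23 GROs and 23 of 24 FGOs exceeded the gonad-derived median, with ranges that overlapped. The 6 dpp FGOs held 4.52 CPM (2.58, 4.05 and 7.85 CPM), 1.83-fold below in vivo FGOs (log2 -0.88, -1.05 to -0.70). All 24 lay below the in vivo median, and 13 of 24 below the lowest in vivo oocyte.

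Atr (chr9:95857597-95951781, plus strand), the kinase for stalled forks and resected ends, ranged from 9.33 CPM in 6 dpp FGOs to 16.5 CPM in gonad-derived GROs. In vivo it was at 13.5 CPM in GROs (8.22, 13.0 and 19.8 CPM) and 11.4 CPM in FGOs (8.39, 10.6 and 16.4 CPM), a ratio of -0.24. In gonad-derived oocytes the ratio was -0.53, and all 24 FGOs lay below the GRO median of 17.0 CPM. Ranges overlapped in every comparison. The counted length of Atr was 2326 bases, while its annotated coding transcripts are 8056 bases or longer, and the antisense genes 1700065D16Rik and Gm16794 overlap its span. Whether strand was used in counting is not given in the sources used here, and overlap with the counted exons was not examined. Reads of those genes may therefore be among those of Atr.

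Chek1 (chr9:36708482-36727065, minus strand) encodes the kinase downstream of ATR that also restrains entry into M phase. It stood far above the other kinases, at 779 CPM in in vivo GROs (585, 779 and 962 CPM) and 1014 CPM in in vivo FGOs (809, 1052 and 1153 CPM). The growth ratio was 0.38 in vivo, 0.34 in gonad-derived and 0.39 in iPSC-derived oocytes, 1.26 to 1.31-fold. This modest difference was regular, since 16 of 20, 16 of 24 and 20 of 24 FGOs lay above the highest GRO of their own source.

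Between sources Chek1 differed little. iPSC-derived GROs held 781 CPM (626, 793 and 916 CPM) and gonad-derived GROs 836 CPM (625, 838 and 997 CPM). Among FGOs, iPSC-derived oocytes held 1026 CPM (757, 1025 and 1215 CPM), gonad-derived oocytes 1055 CPM (861, 1034 and 1947 CPM) and 6 dpp oocytes 1165 CPM (1058, 1144 and 1339 CPM). All 24 of the 6 dpp FGOs were above the in vivo median, with a ratio of 0.20. The highest value, 1947 CPM, came from gonad-derived FGO 19, and the next oocyte of that group held 1173 CPM.

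Trp63 (chr16:25683763-25892102, plus strand) encodes p63, whose TA form kills damaged oocytes. In vivo GROs held 34.5 CPM (21.9, 34.9 and 50.8 CPM) and in vivo FGOs 40.2 CPM (26.4, 40.7 and 52.3 CPM), a ratio of 0.22 (0.14 to 0.29). Gonad-derived oocytes held 35.4 CPM in GROs (22.5, 35.4 and 58.9 CPM) and 41.6 CPM in FGOs (32.0, 39.6 and 66.4 CPM), a ratio of 0.23. In both, the ranges overlapped broadly.

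Trp63 in iPSC-derived oocytes was lower at the first stage and higher at the last. iPSC-derived GROs held 27.8 CPM (16.7, 28.9 and 39.8 CPM), and 22 of 23 lay below the gonad-derived median (log2 -0.34). iPSC-derived FGOs held 53.7 CPM (37.3, 52.8 and 72.0 CPM), and 21 of 24 lay above the gonad-derived median (log2 0.37). The growth ratio was 0.94 (0.86 to 1.01), 1.91-fold, and 21 of 24 FGOs exceeded the highest GRO. It stayed short of 2-fold with CPM and passed it with TMM scaling (1.04) or DESeq2 size factors (1.01). Of genes tested in the iPSC-derived groups, 24.1% had a ratio at least as large. The 6 dpp FGOs held 43.8 CPM (33.0, 41.3 and 83.1 CPM), the highest being oocyte 3. The gene has 8 annotated coding transcripts, and counts for 1 transcript of each gene do not separate the TA from the other forms. The processed pseudogene Gm27005 overlaps the span of Trp63 on the same strand over 921 bases, and whether this includes counted exons was not examined.

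Trp53 (chr11:69580359-69591873, plus strand) encodes p53. It was higher in iPSC-derived than in gonad-derived oocytes at both stages. Among GROs the iPSC-derived oocytes held 78.6 CPM (55.6, 80.9 and 98.3 CPM), gonad-derived oocytes 54.5 CPM (43.0, 55.2 and 65.2 CPM) and in vivo oocytes 50.9 CPM (38.7, 50.4 and 66.2 CPM). Thus 21 of 23 iPSC-derived GROs exceeded the highest gonad-derived one, at 1.44-fold (log2 0.52, 0.47 to 0.58).

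Among FGOs the iPSC-derived oocytes held 91.5 CPM of Trp53 (70.8, 91.3 and 119 CPM), and gonad-derived oocytes held 60.3 CPM (44.7, 57.6 and 107 CPM). The next highest of the gonad-derived group after oocyte 19 was at 73.6 CPM, and 22 of 24 lay below the lowest iPSC-derived oocyte. The ratio was 1.51-fold (log2 0.60, 0.55 to 0.65). The other FGOs held 69.4 CPM after follicle culture (51.1, 66.2 and 127 CPM) and 64.2 CPM in vivo (47.5, 62.5 and 79.9 CPM). Neither difference between iPSC-derived and gonad-derived oocytes reached 2-fold, and 15.3% and 18.5% of tested genes had ratios at least as large. The growth ratios were 0.33 in vivo, 0.14 in gonad-derived and 0.22 in iPSC-derived oocytes.

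**Figure D2:**
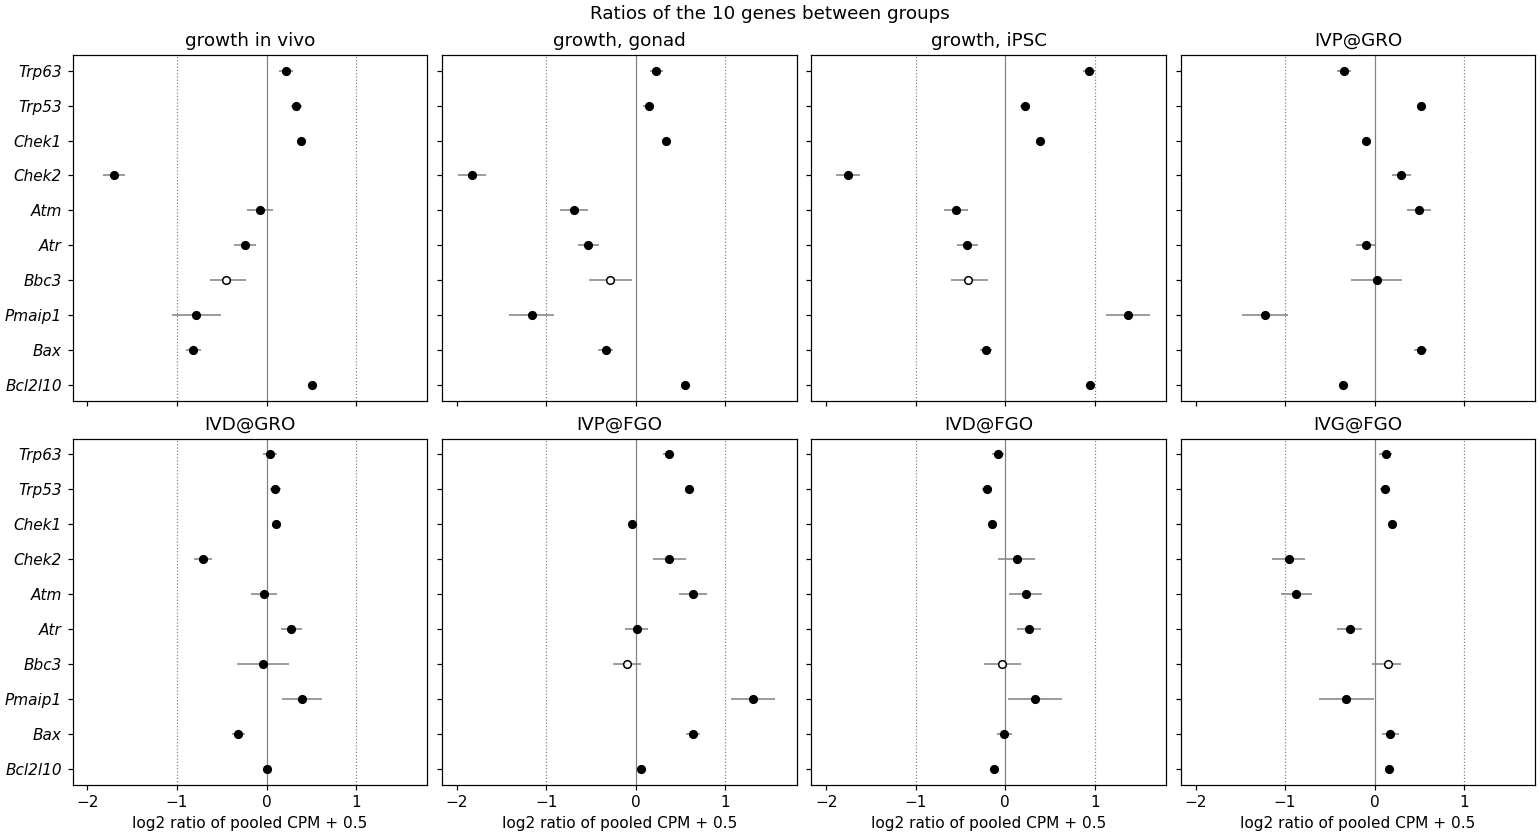
Log2 ratio of pooled CPM + 0.5 (x axis) of each gene (y axis) in 8 comparisons, with the interval from the 95% counting limits of both groups (bars), dotted lines at 2-fold and open points for genes that did not pass the filter. Chek2 lies at -1.71, -1.83 and -1.76 in the growth comparisons, and Pmaip1 lies past 2-fold in 4 comparisons.

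Bbc3 (chr7:16308393-16318205, plus strand) encodes PUMA, the BH3-only protein through which p63 kills oocytes. It was close to absent in almost all oocytes. Pooled levels were 0.182, 0.172 and 0.192 CPM in iPSC-derived, gonad-derived and in vivo GROs, from 30, 27 and 31 reads. In FGOs they were 0.0120, 0.0493, 0.0628 and 0.00690 CPM from 2, 8, 10 and 1 reads (iPSC line, gonads, 6 dpp follicles and in vivo, in that order), where 3 reads in a group correspond to 0.0181 to 0.0207 CPM. The median oocyte was at 0 in all 7 groups, and 8, 8 and 3 GROs in the order above had any read. After thinning to 2000000 reads these counts were 5, 4 and 2, and 2, 5, 7 and 1 FGOs with a read became 0, 2, 2 and 0. The gene passed the filter only among GROs, through 1 oocyte of each group, and its ratios between those groups were 0.02 (-0.27 to 0.31) and -0.04 (-0.33 to 0.25).

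Pmaip1, which encodes the BH3-only protein NOXA, was uneven in every group. Most oocytes held less than the pooled level of their group. In iPSC-derived FGOs and in gonad-derived and in vivo GROs, a few oocytes stood far above the rest. In iPSC-derived FGOs the pooled level was 3.77 CPM and the median 0.617 CPM, because oocyte 14 held 36.3 CPM and oocyte 24 held 25.6 CPM. In gonad-derived GROs it was 3.36 CPM (0, 1.78 and 23.9 CPM), the highest being oocytes 4, 19 and 7 at 23.9, 12.3 and 11.6 CPM. In in vivo GROs it was 2.43 CPM (0, 0.696 and 19.2 CPM), with oocyte 3 at 19.2 and oocyte 2 at 10.6 CPM.

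Each of the 4 called changes of Pmaip1 fell short of 2-fold when 1 of those oocytes was left out. It rose with growth in iPSC-derived oocytes, from 1.15 CPM (0, 0.559 and 5.43 CPM) to 3.77 CPM (log2 1.37, 1.12 to 1.62). In FGOs it was higher in iPSC-derived than in gonad-derived oocytes at 1.22 CPM (0, 0.320 and 14.1 CPM), with a ratio of 1.31 (1.07 to 1.56). Without oocytes 14 and 24 these ratios were 0.31 and 0.25, and an iPSC-derived FGO was the higher of a pair in 51.6% and 56.4% of pairs. Without gonad-derived FGO 19 the ratio among FGOs was 1.90. Pmaip1 was lower in iPSC-derived than in gonad-derived GROs by 2.34-fold (log2 -1.23, -1.48 to -0.97), but by -0.84 without gonad-derived GRO 4. The medians were 0.559 and 1.78 CPM, and 19 of 23 iPSC-derived GROs lay below the gonad-derived median. Pmaip1 fell with growth in gonad-derived oocytes by 1.17 on the log2 scale (-1.42 to -0.91). Without gonad-derived GRO 4 the fall was 0.78 (0.99 without GRO 19, 1.75 without FGO 19). The medians were 1.78 CPM in GROs and 0.320 CPM in FGOs, and 21 of 24 FGOs lay below the GRO median. In both comparisons the ratio of medians stayed past 2-fold. In vivo, GROs and FGOs at 1.20 CPM (0, 0.629 and 3.41 CPM) had a ratio of -0.78, and 6 dpp FGOs held 0.866 CPM (0, 0.570 and 4.98 CPM). The ratio of gonad-derived to 6 dpp FGOs was 0.33, and -0.26 without gonad-derived FGO 19.

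Bax (chr7:45461697-45466898, minus strand) encodes the protein that permeabilises the mitochondrial outer membrane. In vivo it was at 39.8 CPM in GROs (18.1, 37.4 and 68.2 CPM) and 22.4 CPM in FGOs (14.6, 21.4 and 34.5 CPM). All 20 FGOs lay below the GRO median, and the ratio of -0.82 (-0.90 to -0.73), 1.76-fold, stayed within 2-fold. The growth ratio was -0.34 in gonad-derived and -0.22 in iPSC-derived oocytes.

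iPSC-derived oocytes held more Bax than gonad-derived ones at both stages. Among GROs they held 45.8 CPM (28.9, 45.4 and 75.2 CPM) against 31.9 CPM (19.3, 32.0 and 45.7 CPM), a ratio of 0.52 (0.44 to 0.59), and 20 of 23 exceeded the gonad-derived median. Among FGOs they held 39.3 CPM (26.9, 38.5 and 56.7 CPM) against 25.2 CPM (8.77, 25.8 and 35.2 CPM), a ratio of 0.63 (0.56 to 0.71). All 24 exceeded the gonad-derived median, and 17 of 24 the highest gonad-derived oocyte. The 6 dpp FGOs held 25.3 CPM (13.7, 24.5 and 50.7 CPM), and the highest of them was oocyte 12, the one with the highest sums of granulosa and of theca and stroma markers. The span of Bax overlaps Gm45808 on the same strand over 915 bases, and whether this includes counted exons was not examined.

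Bcl2l10 (chr9:75347758-75351632, plus strand) encodes an inhibitor of the BCL2 family with high RNA levels in oocytes. It was the most abundant of the set in every oocyte group, at 3050 CPM in in vivo GROs (2271, 3035 and 4169 CPM) and 4337 CPM in in vivo FGOs (3312, 4414 and 5590 CPM), a ratio of 0.51. All 20 FGOs exceeded the GRO median, and 12 the highest GRO. Gonad-derived oocytes held 3059 CPM (2318, 3041 and 4322 CPM) and 4458 CPM (3333, 4374 and 7718 CPM), a ratio of 0.54.

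iPSC-derived GROs held less Bcl2l10, 2398 CPM (1443, 2445 and 3695 CPM), and 11 of 23 lay below the lowest gonad-derived GRO (log2 -0.35). As FGOs they held 4630 CPM (3483, 4444 and 5984 CPM), which differed from gonad-derived FGOs by 0.06 on the log2 scale. Growth in the iPSC-derived groups thus spanned 1.93-fold (log2 0.95, 0.94 to 0.96), with 22 of 24 FGOs above the highest GRO. It passed 2-fold with TMM scaling (1.06) and DESeq2 size factors (1.03). The 6 dpp FGOs held 4852 CPM (3791, 4835 and 5926 CPM).

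Counts per kilobase of counted length and 1000000 reads put the genes on 1 scale. Bcl2l10 led in all 7 groups, from 1833 to 3709, and Chek1 followed, from 199 to 297. In in vivo FGOs the next were Trp53 at 27.8, Bax at 20.2 and Trp63 at 14.3, then Atr at 4.91, Chek2 at 2.76, Atm at 0.609, Pmaip1 at 0.433 and Bbc3 at 0.00323. In all 3 GRO groups Bax stood above Trp53, and in all 4 FGO groups Trp53 stood above Bax. Chek2 exceeded Atr in pooled level only in iPSC-derived and in vivo GROs, and in iPSC-derived GROs the medians, 6.78 for Chek2 and 6.81 for Atr, stood in the other order. The place of Atr depends on its short counted length.

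**Figure D3:**
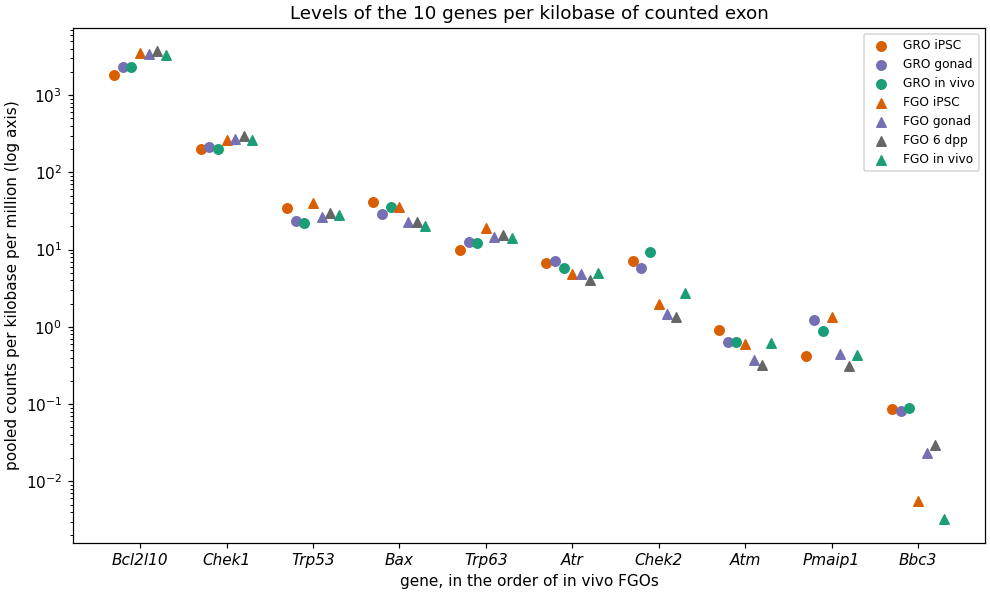
Pooled counts per kilobase of counted length and 1000000 reads (y axis, log axis) for the 10 genes (x axis, in the order of in vivo FGOs), by group, with circles for GROs and triangles for FGOs. Bcl2l10 and Chek1 stand above the rest in all 7 groups and Bbc3 is lowest.

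Between sources, few genes reached 2-fold. For IVP at the GRO stage (iPSC-derived over gonad-derived) 1.98% of 13422 genes were higher, 1.75% lower and 0.365% without overlap. Of the 10 genes of the set, 1 was called, the lower Pmaip1. For IVD at the GRO stage (gonad-derived over in vivo) these shares were 4.18%, 2.70% and 0.127%, and none of the 10 was called.

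Among FGOs, IVP had 2.19% of 13582 genes higher, 3.74% lower and 0.464% without overlap, and 1 of 9 genes of the set was called, the higher Pmaip1. IVD (gonad-derived over 6 dpp) had 1.58%, 0.950% and 0.00736%, and IVG (6 dpp over in vivo) had 1.22%, 2.97% and 0.302%, and neither called any of the 9. No gene of the set was without overlap in any of these comparisons between sources. The comparisons share groups, such as gonad-derived GROs in IVP and IVD, so their values are not independent.

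In 3 GROs, 1 of each source, Bbc3 exceeded 1 CPM, and the same oocytes held the highest RNA of several p53-family targets in their group. They were in vivo GRO 3, gonad-derived GRO 7 and iPSC-derived GRO 8, with 26, 16 and 10 Bbc3 reads or 3.76, 2.65 and 1.40 CPM. The highest other oocytes of the same groups were at 0.578, 0.437 and 0.797 CPM. The 3 oocytes were singled out after their values were seen, so what follows describes them.

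Mdm2, the ubiquitin ligase gene that p53 switches on and that restrains p53, was at 1663 CPM in in vivo GRO 3, where the other oocytes of the group ran from 172 through a median of 261 to 289 CPM. It was at 1197 CPM in gonad-derived GRO 7 (others 210, 252 and 384 CPM) and 703 CPM in iPSC-derived GRO 8 (others 208, 275 and 385 CPM). All 3 values lay outside the range of the others. Ccng1, a cyclin G gene induced by p53, was at 173 CPM (others 14.6, 26.9 and 36.5 CPM), 109 CPM (others 14.6, 28.1 and 39.0 CPM) and 87.7 CPM (others 19.5, 30.7 and 47.8 CPM) in the same order.

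Btg2, an antiproliferative p53 target, was at 283, 214 and 83.2 CPM in these oocytes, against highest other values of 43.0, 71.8 and 49.6 CPM. Sesn2, a stress-induced sestrin, was at 49.6, 45.7 and 52.8 CPM against 13.3, 17.2 and 14.7 CPM. Pidd1, a death-domain gene named for its induction by p53, was at 25.2, 8.60 and 5.33 CPM against 3.57, 2.91 and 4.86 CPM. Of the set, the target list and Mdm2, the genes highest of their group in all 3 oocytes were Mdm2, Ccng1, Btg2, Sesn2 and Pidd1. Bbc3 was too, but the oocytes were picked by it.

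Not all p53 targets followed. Cdkn1a, the p21 cell cycle inhibitor gene, was at 44.5 CPM in iPSC-derived GRO 8 (others up to 8.50 CPM), but at 9.83 and 7.61 CPM in in vivo GRO 3 and gonad-derived GRO 7, below the highest other oocytes at 12.8 and 8.73 CPM. Pmaip1 was at 19.2, 11.6 and 2.10 CPM. Of 14 targets that passed the filter, 5, 5 and 8 were highest of their group in in vivo GRO 3, gonad-derived GRO 7 and iPSC-derived GRO 8. Over all genes that passed, 7.43%, 6.43% and 16.4% were highest of the group in that oocyte.

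Trp53 and Trp63 themselves did not stand apart in these oocytes. Trp53 was at 53.2, 59.6 and 78.4 CPM and Trp63 at 28.2, 39.2 and 34.7 CPM in in vivo GRO 3, gonad-derived GRO 7 and iPSC-derived GRO 8, all within the range of their groups. Trp73, the gene of the p53 relative p73, was highest of its group in gonad-derived GRO 7 and in vivo GRO 3, at 324 and 445 CPM against next values of 110 and 70.9 CPM. Bax was at 50.6, 32.1 and 75.2 CPM, highest of its group in the iPSC-derived oocyte alone. Bcl2l10 was at 4169, 4322 and 3109 CPM in the same order, where the others reached 3924, 4095 and 3695 CPM. Of the 10 genes of the set, with Bbc3 included, 3, 2 and 3 were highest of their group. The totals of these oocytes were 6.92, 6.04 and 7.13 M reads, and 11176, 11063 and 11435 genes exceeded 1 CPM. Granulosa marker sums were 40.3, 37.4 and 43.9 CPM, within their groups, while the sum of 5 blood markers was in the upper part of the group in all 3. It was 5.06 CPM in in vivo GRO 3 (others' median 2.22, highest 5.82 CPM), 10.4 CPM in gonad-derived GRO 7 (3.25 and 10.3 CPM) and 27.4 CPM in iPSC-derived GRO 8 (4.27 and 13.6 CPM). In iPSC-derived GRO 8 the sum was Cd68 alone, since Hbb-bs, Hba-a2, Lyz2 and Ptprc had 0 reads. The oocyte marker sums were 55570, 53082 and 58623 CPM, the last of them the highest of its group (others up to 57859 CPM). The part of Cd68-expressing cells in these values was not tested.

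**Figure D4:**
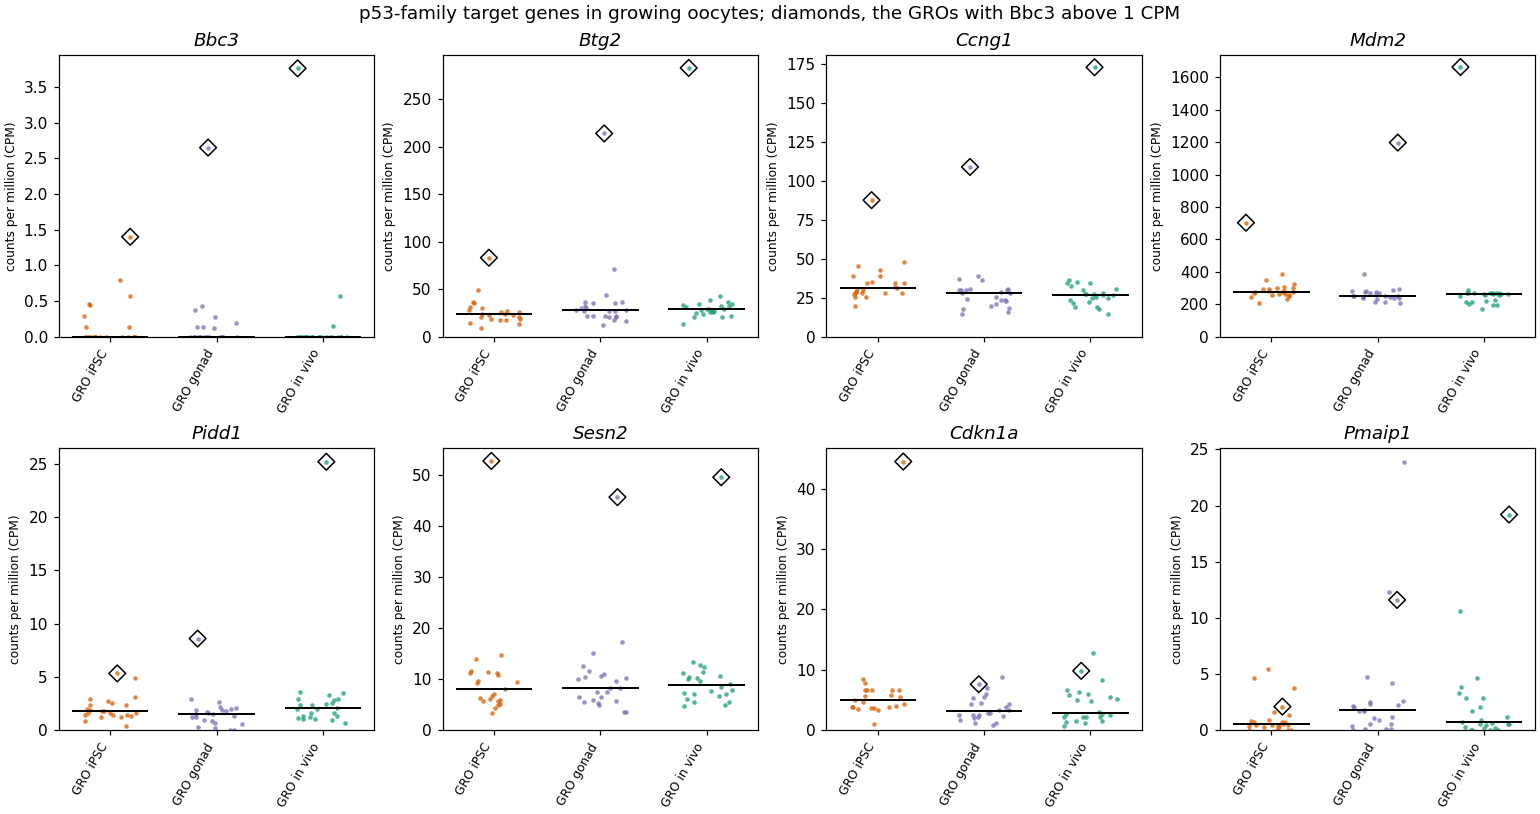
Level (y axis, CPM, linear from 0) of Bbc3, Pmaip1 and 6 p53-family genes in each GRO by source (x axis), with the group median as a line and diamonds around the 3 GROs with Bbc3 above 1 CPM. The diamonds sit above all other oocytes of their group for Btg2, Ccng1, Mdm2, Pidd1 and Sesn2, and for Bbc3, by which they were picked. For Cdkn1a only the iPSC-derived diamond does so, and for Pmaip1 only the in vivo one.

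No FGO exceeded 1 CPM of Bbc3. The highest Mdm2 values of FGOs were 839 CPM in 6 dpp oocyte 11, next to 437 CPM, and 689 CPM in gonad-derived oocyte 1, next to 524 CPM. Both were singled out after their values were seen. The 6 dpp oocyte was highest of its group for 2 of 16 p53-family targets, Btg2 (88.1 CPM) and Sesn2 (26.3 CPM), and for 2.89% of all genes. It was not highest for Ccng1 (22.6 CPM, others up to 46.5 CPM) or Pidd1 (2.54 CPM, others up to 2.93 CPM). The gonad-derived oocyte was highest for 5 of the 16 targets and for 4.3% of all genes. Those 5 were Btg2 (132 CPM), Sesn2 (26.5 CPM), Ccng1 (27.8 CPM, others up to 22.0 CPM), Pidd1 (4.55 CPM, others up to 2.75 CPM) and the death receptor gene Fas (4.28 CPM, others up to 3.22 CPM). Neither was highest for any of the 9 genes of the set, and Bbc3 had 0 reads in the first and 2 in the second. Trp73 was highest of its group in both, at 167 and 192 CPM.

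Gonad-derived FGO 19 stood apart in another way. It was singled out for being highest of its group for more genes of the set than any other FGO, so the 5 below only describe it. It was highest of its group for 5 of the 9 genes of the set, with Trp63 at 66.4, Trp53 at 107, Chek1 at 1947, Pmaip1 at 14.1 and Bcl2l10 at 7718 CPM, and lowest for Bax at 8.77 CPM. It was also highest for 18.3% and lowest for 29.2% of all genes that passed, with 10311 genes above 1 CPM where the others of the group had 10642 to 11324. Its oocyte marker sum was 22519 CPM, below the 25450 to 38318 CPM of the others. Of 16 p53-family targets it was highest at 1 and lowest at 2.

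The other genes of the pathway were described with 8 lists of 92 genes, of which 85 were found. With growth in vivo, 16 of 79 that passed were at least 2-fold lower and 1 was higher, against the 13.2% lower and 10.4% higher over all genes, and the median ratio was -0.31 against -0.11 over all genes. Among gonad-derived oocytes 11 of 80 were lower and 0 higher, with a median of -0.10 against -0.05. Among iPSC-derived oocytes 11 of 77 were lower and 1 higher, with a median of -0.30 against -0.11. Few pathway genes were thus higher in FGOs. In the gonad-derived and iPSC-derived groups, 5.82% and 6.69% of all genes were higher, and 9.98% and 15.3% were lower.

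By role, genes lower after growth in vivo were 2 of 24 break sensors and mediators and 1 of 3 casein kinases that activate p63. They were also 1 of 9 regulators of the p53 family, 5 of 14 p53-family targets and 1 of 4 cell cycle effectors. The rest were 2 of 4 antiapoptotic BCL2 relatives, none of 4 proapoptotic ones, and 4 of 17 caspases and mitochondrial factors. The 1 higher gene was in that last list. In gonad-derived and iPSC-derived growth, 2 of 15 and 2 of 14 p53-family targets were lower. So were 1 of 4 and 1 of 3 antiapoptotic relatives, and 4 of 17 and 3 of 17 caspases and mitochondrial factors. Over all genes, 13.2% were lower in vivo, 9.98% in gonad-derived and 15.3% in iPSC-derived growth. Mcl1, the short-lived antiapoptotic relative, fell from 25.9 CPM (6.65, 15.6 and 70.9 CPM) to 5.48 CPM (1.08, 3.75 and 14.0 CPM), by 2.14 on the log2 scale. Bcl2l2, which encodes BCL-w, fell by 1.62, from 3.26 to 0.724 CPM. Trp53bp2, the gene of the p53-binding protein ASPP2, fell by 2.15, from 6.20 to 1.01 CPM. Casp6, an executioner caspase, fell by 1.93, from 17.6 to 4.26 CPM, and Parp1, a break-sensing enzyme that caspases cleave, fell by 1.57, from 130 to 43.4 CPM. Ranges overlapped for all of these.

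Some of these were also lower after growth in culture. Casp6 fell by 2.00 in gonad-derived and 2.33 in iPSC-derived oocytes, and Trp53bp2 by 1.73 and 2.19. Wee1, the kinase that holds CDK1 inactive, fell by 2.36 in gonad-derived oocytes, from 47.6 CPM (27.7, 45.2 and 70.7 CPM) to 8.87 CPM (4.35, 7.22 and 24.6 CPM), and by 2.31 in iPSC-derived oocytes, both without overlap. Prkdc, the DNA-dependent protein kinase of end joining, fell by 1.56 (from 32.4 to 10.7 CPM) and 2.14 (from 30.6 to 6.57 CPM), also without overlap. Mcl1 fell by 2.32 in iPSC-derived oocytes, and Birc2, the inhibitor of apoptosis cIAP1, fell by 1.66 in gonad-derived oocytes, from 19.0 to 5.68 CPM.

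**Figure D5:**
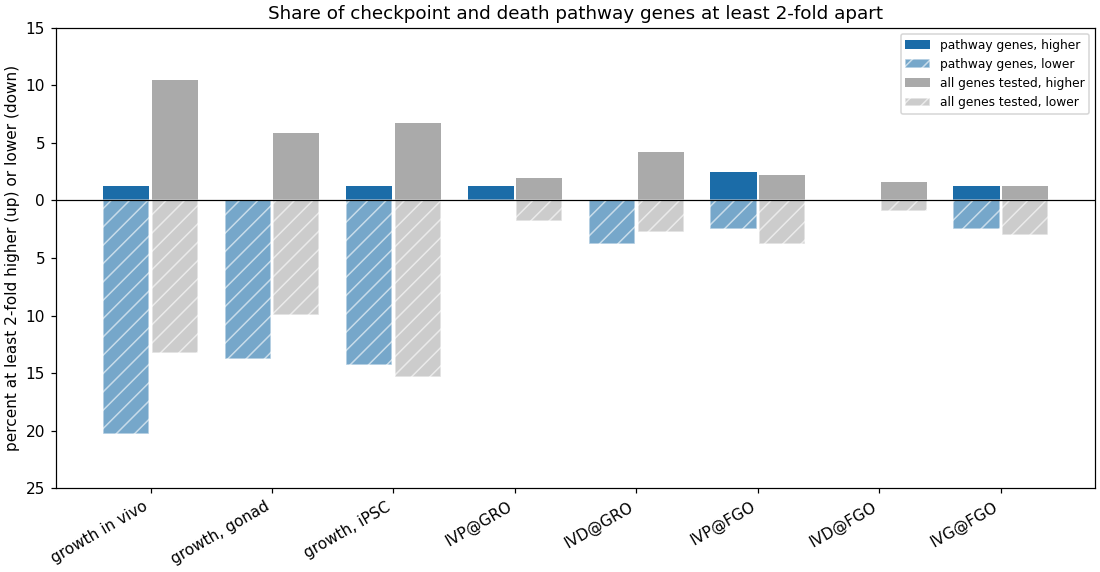
Percent of genes at least 2-fold higher (upward bars) or lower (downward, hatched) in each of 8 comparisons (x axis), for the pathway lists (blue) and for all genes tested (grey). The tallest pathway bar is the downward one for growth in vivo, 16 of 79 genes.

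Between sources, the counts of called pathway genes are set beside the share of all genes called in either direction. IVP at the GRO stage called 1 of 79 higher and 0 lower, 1.27% against 3.73% of all genes, with a median ratio of 0.01 against -0.01. IVD at that stage called 0 higher and 3 lower, 3.80% against 6.88%, with medians of -0.15 and -0.03. Among FGOs IVP called 2 higher and 2 lower of 81, 4.94% against 5.93% (medians -0.10 and -0.08). IVD called 0 in either direction against 2.53% (-0.02 and 0.02), and IVG called 1 higher and 2 lower, 3.70% against 4.20% (0.05 and -0.04). These counts differed between settings. With edgeR's group coefficients they were 14 for IVP, 3 for IVD and 8 for IVG among FGOs. Those are 17.3%, 3.70% and 9.88%, where 12.1%, 6.58% and 9.16% of all genes were called.

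The pathway gene that stood furthest apart between sources was Hormad1, which encodes a meiotic axis protein that marks unsynapsed chromosomes for the checkpoint. iPSC-derived GROs held 15.1 CPM (6.34, 15.0 and 26.0 CPM) and gonad-derived GROs 1.99 CPM (0.141, 1.95 and 3.80 CPM), a log2 ratio of 2.65 (2.46 to 2.83) without overlap. In FGOs the levels were 15.7 CPM (3.57, 16.1 and 24.9 CPM) and 2.28 CPM (0.880, 2.08 and 5.03 CPM), a ratio of 2.54 (2.36 to 2.72), with 23 of 24 above the highest gonad-derived oocyte. Of all genes tested, 0.268% and 0.339% had a ratio at least as large.

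In FGOs Trp73 was lower in iPSC-derived oocytes, 23.5 CPM (4.77, 23.5 and 50.6 CPM) against 69.8 CPM (5.61, 60.3 and 192 CPM), a ratio of -1.55 (-1.62 to -1.48), and all 24 lay below the gonad-derived median. Birc2 was higher (13.1 against 5.68 CPM, log2 1.13) and Zmat3, a p53 target, lower (2.65 against 5.89 CPM, log2 -1.02). In gonad-derived against in vivo GROs, the ratio was -1.33 for Trp53bp2, -1.13 for Mcl1 and -1.01 for Aen, a p53-induced nuclease gene. In 6 dpp against in vivo FGOs, Wee1 was at 8.29 against 24.0 CPM (-1.48), Prkdc at 8.25 against 19.6 CPM (-1.20) and Sesn1, another sestrin, at 9.39 against 4.17 CPM (1.08). The part of the theca and stroma markers in these 3 ratios was not tested.

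Likeness over oocytes was measured as Pearson's r of log2(CPM + 1) with 9825 genes across all oocytes of the 7 groups, which share a stage, a source and library depth, so r is a description. For Chek2 the highest was Dr1 (r = 0.939, and 0.617 after subtracting group means), for Bcl2l10 Btg4 (0.900 and 0.761), and for Chek1 Pex13 (0.888 and 0.781). For Bax it was Pmm1 (0.768 and 0.618), for Trp53 Pcid2 (0.754 and 0.270), for Trp63 Ssb (0.680 and 0.274), for Atm Lgalsl (0.653 and 0.440) and for Atr Zswim7 (0.636 and 0.268). For the sparse Pmaip1 and Bbc3 the values were 0.457 with Zscan4c and 0.762 with Lyzl4, and most oocytes were at or under 1 CPM of both genes. Between genes of the set, Chek1 and Bcl2l10 had r = 0.766 over all oocytes and 0.374 within groups, and Chek1 and Bax -0.629 and -0.527. For Chek1 and Chek2 r was -0.767 over all oocytes and -0.182 within groups.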

How the data were processed

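Single mouse oocytes were sequenced by the authors with single-end reads, which they aligned with STAR to GRCm38 (mm10) and counted with QuasR over the exons of 1 randomly chosen transcript per gene, so that the deposited values are raw counts of uniquely mapped reads. Library totals were 2.17 to 13.7 M (1000000) reads, and depth limits Bbc3 and Pmaip1 most.

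Groups were taken from the labels. Counts were summed over the oocytes of a group and scaled to CPM, with exact Poisson 95% intervals that cover counting error only. No test was made. Ratios carried 0.5 CPM, and their intervals set the lower limit of one group over the upper limit of the other, and the reverse. Genes above 1 CPM in 3 or more oocytes, counted over a stage or, for growth, over the groups compared, were called at 2-fold. The genes and lists were chosen with earlier results of these data known. All 10 genes are named, with, in each comparison, up to 5 pathway genes of largest ratio at 2 CPM or more and the gene most alike each (5 CPM or more). Other genes named were chosen after their values were seen. Alternatives were TMM (edgeR 4.0.16), DESeq2 1.42.0 size factors, edgeR group coefficients, pseudocounts of 0.1 and 2 CPM, no filter, medians, thinning to 2000000 reads, and oocytes left out, of which the set of iPSC-derived FGOs 14 and 24 and the set of GROs with high Bbc3 plus gonad-derived FGO 19 were chosen after seeing the data. The scripts were tested on simulated data, with R 4.3.3, Python 3.11.15, pandas 2.3.3, numpy 2.4.6, scipy 1.17.1 and matplotlib 3.10.9. Gene positions are from GENCODE (GRCm38). No 2 libraries held identical counts.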

Additional observations from a re-analysis of the deposited data

How the results depend on the processing

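No paired analysis was possible because the oocyte numbers only name oocytes and no test was made. Over 74 ratios of the 10 genes and 704 alternative values, 682 kept their direction and 683 their side of 2-fold, and Chek2 was called lower in FGOs of all 3 sources under each setting run. In the iPSC-derived growth comparison 4 genes instead of 2 were called with TMM, DESeq2 size factors or edgeR coefficients, as Trp63 and Bcl2l10 passed 2-fold, and 1 with a pseudocount of 2 CPM, with medians, without FGOs 14 and 24 (chosen after seeing the data), or at the lowest with 1 oocyte left out. In gonad-derived growth 1 instead of 2 was called with a pseudocount of 2 and at the lowest with 1 oocyte left out. IVP at GROs called 0 instead of 1 with a pseudocount of 2 or 1 oocyte left out, and IVP at FGOs 0 instead of 1 with these, with medians and without FGOs 14 and 24. IVG at FGOs called 1 instead of 0 with a pseudocount of 0.1, with medians (Atm, -1.06) or with 1 in vivo oocyte left out (Chek2, as low as -1.01 without oocyte 12). Pathway genes called with a pseudocount of 0.1 were 2 (IVP) and 5 (IVD) at GROs, and 10 (IVP), 1 (IVD) and 7 (IVG) at FGOs, which is 2.53%, 6.33%, 12.3%, 1.23% and 8.64% of those tested against 6.41%, 11.4%, 10.3%, 5.27% and 7.83% of all genes. With a pseudocount of 2 they were 1 for IVD at GROs and 2 for IVP at FGOs (1.27% and 2.47%, against 3.23% and 2.86% of all genes), and 2 instead of 3 for IVG at FGOs (2.47% against 1.82%). edgeR coefficients gave 3 and 6 at GROs, and 14, 3 and 8 at FGOs, in the same order, or 3.80%, 7.59%, 17.3%, 3.70% and 9.88% against 7.47%, 12.9%, 12.1%, 6.58% and 9.16% of all genes. TMM moved the median of all genes by 0.11 in iPSC-derived growth. Counting error bounds Bbc3 in the FGO groups at no more than 0.115 CPM, pooled, and the causes of these shifts were not tested.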
